A study of Mus musculus with 4 samples.

Results

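ATP-binding cassette (ABC) transporter genes were described in blood stem cells that had been parted by their level of N-myc. The genes were taken by symbol, as all platform genes named Abc with a subfamily letter from a to g and a number. This gave 45 genes, read by 92 probe sets, out of 18193 genes on the array, and for each gene the brightest of its probe sets on average was used. The haematopoietic stem cells (HSCs) came from bone marrow of transgenic mice with a gene that fuses N-myc to the red fluorescent protein mCherry, without culture or treatment. All 4 samples were sorted as cells without lineage markers or CD48 and with Sca-1, Kit and CD150, and mCherry parted them into N-myc high and N-myc low. Each fraction had 2 arrays, labelled mouse 1 and mouse 2, and 5 ng of total RNA was amplified for each. No age of the animals or number of sorted cells was stated in the labels used here.

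ABC proteins bind and hydrolyse ATP, and most use it to move lipids, drugs, peptides, metal complexes or conjugated metabolites across a membrane. The members of subfamilies E and F have no membrane-spanning part and work on ribosomes and translation. In HSCs the family is known for dye efflux. The product of Abcg2 pumps out the Hoechst dye, which defines the side population, and the P-glycoproteins encoded by Abcb1a and Abcb1b pump out rhodamine and many drugs. N-myc is a transcription factor of the MYC family, whose members bind the E-box CACGTG.

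The sort gene Mycn averaged 10.43 ± 0.069 in N-myc high, against 9.54 ± 0.15 in N-myc low HSCs on the log2 intensity scale (SD, n = 2 each). The limma adjusted p of that difference was 0.762, and across all 18193 genes 0 genes had an adjusted p under 0.05, while 642 were higher and 506 lower in N-myc high at an unadjusted p under 0.05. Both arrays of mouse 1 carried the female-specific Xist (11.38 in N-myc high, 11.10 in N-myc low) and signal of the Y-linked Eif2s3y (8.53 in N-myc high, 8.43 in N-myc low). Mouse 2 had Xist at only 3.84 in N-myc high, against 3.70 in N-myc low, with Eif2s3y at 9.40 and 9.67 (same order). Xist thus parted mouse 1 from mouse 2 within each fraction. The Y-linked Kdm5d had 6.51 in N-myc high, against 7.36 in N-myc low in mouse 1, and 8.36 in N-myc high, against 7.91 in N-myc low in mouse 2. Whether the Y probe sets also read X-linked copies, and whether mouse 1 was 1 animal, was not tested, so a value within mouse 1 may not be a value within 1 animal. Among the markers of the sort, Kit lay between 10.17 and 10.53 on all arrays. Cd48, which the sort selects against, lay at 7.42 and 7.11 in N-myc high, against 9.89 and 9.07 in N-myc low. Of the 6 measured stem cell markers, 6 lay above the level of sensory receptor genes described below, and of 4 T and NK cell markers 0 did. As 65.3% of all genes lay above that level, a count near this share does not show that a cell type was present. The summed linear intensity of the stem cell markers was 3028 and 3960 in N-myc high, against 1871 and 1667 in N-myc low. Of 10 macrophage markers 6 lay above that level, with sums of 834 and 804 in N-myc high, against 533 and 399.8 in N-myc low. Without C1qb, which differed most in that list, the macrophage sums were 532 and 448 in N-myc high, against 479 and 349.8 in N-myc low. Of 5 erythroid markers 4 lay above that level, with sums of 538 and 402 in N-myc high, against 844 and 709 in N-myc low. Without Klf1 the erythroid sums were 285 and 225 in N-myc high, against 463 and 284 in N-myc low, and the groups overlapped. Of 6 neutrophil markers 5 lay above that level, with sums of 30125 and 26532 in N-myc high, against 31688 and 30956 in N-myc low. Of 5 megakaryocyte markers 5 did, with overlapping sums of 3800 and 3144 in N-myc high, against 3290 and 2985 in N-myc low. Without Pf4 the megakaryocyte sums were 831 and 818 in N-myc high, against 1244 and 1218 in N-myc low. Of 6 B cell markers 4 exceeded that level, with sums of 945 and 481 in N-myc high, against 306 and 1207 in N-myc low. The B cell sums without Ighm were 480 and 379 in N-myc high, against 256 and 294 in N-myc low, and the groups did not overlap. Of 5 endothelial markers 3 lay above that level, and of 4 mast cell markers 1 did. The mast cell sums were 106 and 88.7 in N-myc high, against 181 and 182 in N-myc low. Without Cpa3 the mast cell sums were 51.3 and 52.5 in N-myc high, against 57.1 and 36.7 in N-myc low, and the groups overlapped. The stem cell sums without Mecom stayed higher in N-myc high, and the neutrophil sums without S100a9 stayed lower. C1qb, Klf1, Pf4, Ighm, Cpa3, Mecom and S100a9 were left out after their values were seen. The part of other cells in the values of the ABC genes was not tested, and in such bulk samples fewer cells of a type and less RNA per cell cannot be told apart.

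Promoter sequences show where the E-box letters occur in the family. RefSeq promoter windows (assembly GRCm38.p6, 250 bases before to 50 after a gene start) were given for 35 of the 45 genes, in 42 windows. The letters CACGTG, which read the same on both strands, were found in 5 windows of 5 genes (11.9% of the 42 windows), against 7.15% of all 32851 windows. The 7.15% was taken over all genes, measured on the array or not. Most upstream windows were also split by the sensory receptor level described below. Above that level 3 of 23 members (13.0%) held CACGTG, against 10.1% of measured genes. Of members not above it 2 of 12 (16.7%) did, against 6.86% of measured genes. The 5 stretches are printed because they hold the only exact matches among the 42 windows. Capitals mark the E-box.
Abca1, chr4:53160020-53160059, minus strand: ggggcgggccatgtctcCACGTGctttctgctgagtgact
Abca8a, chr11:110096051-110096090, minus strand: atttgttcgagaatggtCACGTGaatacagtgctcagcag
Abca8b, chr11:109995805-109995844, minus strand: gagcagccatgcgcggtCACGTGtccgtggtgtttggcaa
Abcc4, chr14:118706402-118706441, minus strand: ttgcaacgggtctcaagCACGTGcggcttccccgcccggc
Abcf1, chr17:35969829-35969868, minus strand: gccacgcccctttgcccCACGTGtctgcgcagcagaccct
Relative to the gene start, the E-box began at base -147 in Abca1, -136 in Abca8a, -205 in Abcc4 and -101 in Abcf1, while in Abca8b it began at base 18 after the start. These matches describe letters in a window and were not tested as binding sites.

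The windows of the dye efflux genes, and of Abcf2 and Abcf3, whose values are given below, held no CACGTG. They are printed to show how unlike they are in CG dinucleotides, which are in capitals. For Abcg2, which has 3 windows in the table, the most upstream start is shown.
Abcg2, chr6:58584283-58584582, plus strand: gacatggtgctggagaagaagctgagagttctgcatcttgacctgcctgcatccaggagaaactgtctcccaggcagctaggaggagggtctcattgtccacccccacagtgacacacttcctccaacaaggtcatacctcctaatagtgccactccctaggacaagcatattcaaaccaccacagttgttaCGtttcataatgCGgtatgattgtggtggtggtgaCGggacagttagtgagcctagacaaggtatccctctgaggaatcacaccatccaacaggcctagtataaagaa
Abcb1a, chr5:8566841-8567140, plus strand: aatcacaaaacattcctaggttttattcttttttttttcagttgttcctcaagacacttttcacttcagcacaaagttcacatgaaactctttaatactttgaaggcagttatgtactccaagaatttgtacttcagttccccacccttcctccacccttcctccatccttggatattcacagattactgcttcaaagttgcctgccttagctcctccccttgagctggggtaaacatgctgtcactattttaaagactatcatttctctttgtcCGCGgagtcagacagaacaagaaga
Abcb1b, chr5:8797897-8798196, plus strand: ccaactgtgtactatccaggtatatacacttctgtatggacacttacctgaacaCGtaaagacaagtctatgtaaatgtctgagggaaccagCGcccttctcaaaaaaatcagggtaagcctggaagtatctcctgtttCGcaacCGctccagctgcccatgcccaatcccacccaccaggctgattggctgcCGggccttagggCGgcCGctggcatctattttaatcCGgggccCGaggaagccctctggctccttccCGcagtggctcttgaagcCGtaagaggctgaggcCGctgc
Abcf2, chr5:24577418-24577717, minus strand: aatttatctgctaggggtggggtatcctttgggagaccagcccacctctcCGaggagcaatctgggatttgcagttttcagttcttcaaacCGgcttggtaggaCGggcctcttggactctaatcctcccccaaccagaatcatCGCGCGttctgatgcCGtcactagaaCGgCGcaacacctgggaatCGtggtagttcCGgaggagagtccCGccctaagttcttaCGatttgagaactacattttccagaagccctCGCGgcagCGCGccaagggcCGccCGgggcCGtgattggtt
Abcf3, chr16:20548353-20548652, plus strand: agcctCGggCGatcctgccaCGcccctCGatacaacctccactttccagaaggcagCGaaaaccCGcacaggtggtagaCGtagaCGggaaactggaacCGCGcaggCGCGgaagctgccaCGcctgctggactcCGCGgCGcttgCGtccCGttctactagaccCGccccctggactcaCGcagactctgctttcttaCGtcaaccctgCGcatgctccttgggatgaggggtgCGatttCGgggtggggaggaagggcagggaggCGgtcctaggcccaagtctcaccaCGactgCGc
The window of Abcb1a held 2 CG dinucleotides and that of its neighbour Abcb1b held 12, and the shown window of Abcg2 held 3, against 20 in Abcf2 and 27 in Abcf3. The median over all windows was 7.

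To say which members gave a signal, levels were set against 71 olfactory and vomeronasal receptor genes, which serve sensory neurons. Their median log2 intensity was 2.77 and their 95th percentile 4.85. Of the 45 ABC genes, 30 had a mean over the 4 arrays above 4.85, a share of 66.7%, and of all genes 65.3% did. Above the 99th percentile of the receptor genes, 5.20, were 28 members (62.2%), where 61.2% of all genes were, and above the median gene were 23 (51.1%), where 50% of all genes were. The share of detected members was thus close to that of all genes. Of the 45, 25 lay above the line on all 4 arrays and 14 on none. Just inside the line were Abcg8 with a mean of 5.04 and Abcb9 with 5.13, and just outside it were Abcd2 with 3.88 and Abcc2 with 3.66. Probe sets differ in how strongly they bind, so a level says whether a signal stood above this line and does not rank 1 gene against another.

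**Figure D1:**
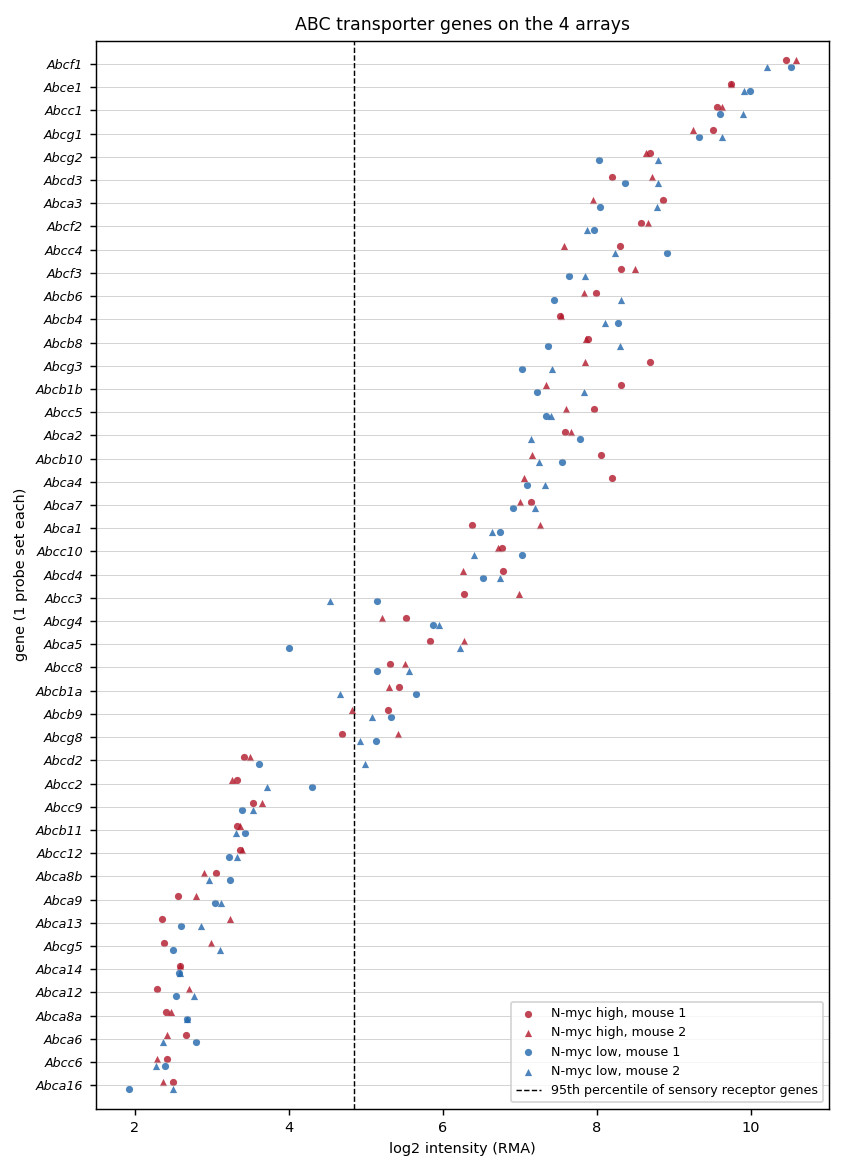
Log2 intensity (x axis) of each of the 45 ABC transporter genes (rows) on the 4 arrays, with red for N-myc high, blue for N-myc low, circles for mouse 1 and triangles for mouse 2; the dashed line is the 95th percentile of sensory receptor genes at 4.85. The means of the 30 genes above the line end at 5.04 and those of the other 15 begin at 3.88, and Abcc3, Abca5 and Abcg3 have the widest spread between arrays.

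The genes above the line came from every subfamily from A to G. By subfamily they were 6 of 14 in A, 7 of 8 in B, 6 of 10 in C, 2 of 3 in D, 1 of 1 in E, 3 of 3 in F and 5 of 6 in G. Of the 15 genes below it, 8 belonged to the cholesterol and phospholipid group. Among the 15 were Abca12, a skin lipid transporter (mean 2.58), Abcb11, the bile salt export pump of liver (3.36), Abcg5, a sterol exporter of liver and gut (2.75), and Abcc9, the sulphonylurea receptor of muscle potassium channels (3.53). The most upstream promoter windows of 23 members above the line had a median of 21 CG dinucleotides, and those of 12 members not above it had 5.5. Over all measured genes the same medians were 21 and 7, so the members were split much as the array as a whole.

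Of the 9 drug efflux genes 8 were above the line, and their median difference was 0.21 in the fit over both mice, but -0.034 within mouse 1 and -0.15 within mouse 2. At an unadjusted p under 0.05, 1 of the 9 was higher (Abcc3) and 1 lower (Abcc2) in N-myc high. Of all genes 3.53% were higher and 2.78% lower. None of the 3 dye efflux genes differed between the fractions beyond its error. Abcg2 had a log2 intensity of 8.69 and 8.65 in N-myc high, against 8.04 and 8.80 in N-myc low (mouse 1 and mouse 2). All arrays were far above the line, the groups overlapped, and the single low array was N-myc low of mouse 1. The difference of 0.25 (SE 0.307) had a limma adjusted p of 0.905 and a 95% interval of -0.56 to 1.07, and it was 0.65 within mouse 1 and -0.15 within mouse 2. Without N-myc low mouse 1 it was -0.13. A log2 difference of 1 lies inside the interval of Abcg2.

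Abcb1b had 8.32 and 7.34 in N-myc high, against 7.23 and 7.84 in N-myc low. The high array of mouse 1 and the low array of mouse 2 were the brighter ones, so the mice went opposite ways, with 1.09 within mouse 1 and -0.49 within mouse 2. The fitted difference was 0.30 (SE 0.419, limma adjusted p = 0.919, 95% interval -0.82 to 1.41). Without N-myc high mouse 1 it was -0.19. Its second probe set lay at a mean of 3.30, below the line, and gave -0.037.

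Abcb1a was near the line, with 5.44 and 5.30 in N-myc high, against 5.65 and 4.67 in N-myc low. The groups overlapped, and N-myc low mouse 2 lay under 4.85. The difference was 0.21 (SE 0.373, limma adjusted p = 0.94, 95% interval -0.78 to 1.20), it was -0.21 within mouse 1 and 0.63 within mouse 2, and without N-myc low mouse 2 it was -0.28. The other probe set of Abcb1a had a mean of 3.14, below the line. Abcb1a and Abcb1b are close paralogs, and how far a probe set of 1 reads the transcript of the other was not tested.

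Of the multidrug resistance proteins in subfamily C, Abcc3 differed most. Abcc3, an exporter of organic anions such as glucuronides, had 6.28 and 6.997 in N-myc high, against 5.15 and 4.54 in N-myc low. Both N-myc high arrays were above both N-myc low arrays, and 1 of the low arrays lay under the line. The difference was 1.79 (SE 0.357), a 3.46-fold difference, with an unadjusted limma p of 0.00542 and an adjusted p of 0.762. It was 1.13 within mouse 1 and 2.45 within mouse 2, and between 1.43 and 2.15 with any 1 array left out. Only 1 probe set reads Abcc3.

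Abcc4, an exporter of cyclic nucleotides and prostaglandins whose promoter window holds an E-box, had 8.30 and 7.58 in N-myc high, against 8.91 and 8.24 in N-myc low. The mouse 1 array was the brighter in each fraction and the groups overlapped, yet the fractions differed alike in both mice, by -0.61 within mouse 1 and -0.66 within mouse 2. The fitted difference was -0.64 (SE 0.369, limma adjusted p = 0.811), and with the mouse as a block the unadjusted p was 0.0358 and the adjusted p 0.781. Abcc1, an exporter of glutathione conjugates and leukotriene C4, was even across arrays, with 9.57 and 9.63 in N-myc high, against 9.60 and 9.90 in N-myc low. Its 95% interval was -0.68 to 0.38. Abcc5, another exporter of cyclic nucleotides, had 7.96 and 7.60 in N-myc high, against 7.34 and 7.40 in N-myc low, without overlap, but the 9 other probe sets of Abcc5 gave -0.41 to 0.16. Abcc10, a broad drug exporter, gave 0.027 (6.77 and 6.72 in N-myc high, against 7.03 and 6.41 in N-myc low), and its other probe set gave -1.12, which came from mouse 2 alone. Abcc2, the canalicular organic anion pump of liver, was below the line on all arrays, with 3.33 and 3.27 in N-myc high, against 4.31 and 3.72 in N-myc low. Its difference was -0.72 (limma p of 0.0459 unadjusted, 0.05002 with the mouse as a block, where it no longer passed, and 0.779 adjusted).

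Of the 18 lipid transporters of subfamilies A, B and G in the cholesterol and phospholipid group, 10 were above the line. The difference was positive for 7 and negative for 11, with a median of -0.039 (-0.19 within mouse 1 and -0.096 within mouse 2). Below the line, all genes of the group but Abca13 were negative. Of all 18193 genes 8234 were positive and 9959 negative, and of the 71 receptor genes 15 and 56 (same order). At an unadjusted p under 0.05, 2 of the 18 were lower, Abcb4 and Abcg4, and 0 higher, against 2.78% and 3.53% of all genes. The pair that hands cholesterol to lipoproteins was detected. Abcg1, which loads high-density lipoprotein, had 9.52 and 9.25 in N-myc high, against 9.33 and 9.63 in N-myc low, with overlap and a 95% interval of -0.68 to 0.48. The other probe set of Abcg1, with a mean of 5.38, gave -0.89 and was lower in both mice. Abca1, which loads apolipoprotein A-I and has an E-box in its window, had 6.38 and 7.27 in N-myc high, against 6.75 and 6.64 in N-myc low. Its difference was 0.13 (SE 0.344) with -0.37 within mouse 1 and 0.63 within mouse 2, and its dimmer probe sets gave 0.44 and 1.04.

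Abcb4, the phosphatidylcholine transporter of bile, was the detected lipid transporter of smallest p. It had 7.52 and 7.54 in N-myc high, against 8.29 and 8.11 in N-myc low. Both N-myc high arrays lay below both N-myc low arrays, and arrays of a fraction were within 0.18 of each other. The difference was -0.66 (SE 0.182, limma p of 0.0176 unadjusted and 0.769 adjusted), it was -0.76 within mouse 1 and -0.56 within mouse 2, and it stayed between -0.75 and -0.58 with any 1 array left out. Abcg4, a sterol exporter of subfamily G, had 5.53 and 5.21 in N-myc high, against 5.88 and 5.96 in N-myc low, also without overlap. Its difference was -0.55 (SE 0.204, limma p of 0.0485 unadjusted, 0.0765 with the mouse as a block, and 0.779 adjusted), while its other probe set gave 0.20.

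Several subfamily A genes stood apart on single arrays. Abca5, a lysosomal member, had 5.83 and 6.28 in N-myc high, against 4.004 and 6.23 in N-myc low. Its difference of 0.94 (SE 0.774) rested on N-myc low mouse 1, without which it was -0.17. Abca3, the phospholipid transporter of lung lamellar bodies, had 8.86 and 7.95 in N-myc high, against 8.05 and 8.78 in N-myc low, and the mice went opposite ways (0.81 within mouse 1 and -0.83 within mouse 2). Abca4, known from the retina, had 8.21 and 7.06 in N-myc high, against 7.10 and 7.33 in N-myc low, with N-myc high mouse 1 apart from the rest. Abca2 and Abca7, by contrast, had differences of 0.17 and 0.023, with 95% intervals of -0.56 to 0.90 and -0.52 to 0.56.

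With the probe sets used, the 3 mitochondrial members were above the line on every array, and their fractions overlapped. Abcb10, an inner membrane protein needed for haem synthesis, had 8.06 and 7.16 in N-myc high, against 7.55 and 7.25 in N-myc low. Abcb6, linked to porphyrin transport, had 7.998 and 7.84 in N-myc high, against 7.45 and 8.31 in N-myc low, and Abcb8, linked to mitochondrial iron export, had 7.88 and 7.86 in N-myc high, against 7.37 and 8.31 in N-myc low. With these probe sets the differences of all 3 were positive in mouse 1 and negative in mouse 2. The fitted ones were 0.20, 0.037 and 0.028. A second probe set of Abcb10, with a mean of 7.03, was higher in both mice without overlap (0.81 and 0.30). A dimmer probe set of Abcb10 gave -0.067. The other probe set of Abcb8, with a mean of 6.32, was lower in both mice without overlap (-0.40 and -0.14). In the peroxisome group 2 of 3 genes were above the line, and all 3 had a negative difference, none with an unadjusted p under 0.05. Abcd3, an importer of fatty acyl-CoA, had 8.20 and 8.72 in N-myc high, against 8.36 and 8.79 in N-myc low, with mouse 2 the brighter in each fraction. Abcd4, the lysosomal cobalamin transporter, gave -0.11 (SE 0.253). Abcd2, a very-long-chain fatty acid importer, was below the line except for N-myc low mouse 2 (3.42 and 3.50 in N-myc high, against 3.61 and 4.99 in N-myc low), and that array carried its difference of -0.84, which was -0.15 without it.

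The 4 ribosome and translation members were all above the line, with a median difference of 0.41 (0.27 within mouse 1 and 0.51 within mouse 2), and Abcf2 and Abcf3 parted the fractions with the probe sets used. These 2 of the 4 were higher at an unadjusted p under 0.05, and 0 were lower. Of all genes 3.53% were higher and 2.78% lower, and a count out of 4 rests on few genes. Abcf2, a cytosolic ABC protein of subfamily F, had 8.58 and 8.66 in N-myc high, against 7.97 and 7.88 in N-myc low. Abcf3, a relative of the yeast translational regulator Gcn20, had 8.32 and 8.50 in N-myc high, against 7.64 and 7.85 in N-myc low. For both genes the N-myc high arrays lay above the N-myc low arrays in each mouse. The difference was 0.70 for Abcf2 (SE 0.177, limma p of 0.0132 unadjusted and 0.762 adjusted) and 0.67 for Abcf3 (SE 0.196, limma p of 0.0226 unadjusted and 0.769 adjusted), or 1.62-fold and 1.59-fold. The other probe sets went the other way, with -0.21 for Abcf2, and -0.19 and -0.091 for Abcf3, and none of these 3 was higher in both mice. That of Abcf2 had a mean of 7.92, well above the line, so the difference was not shared by the probe sets of these genes. With the mean of its probe sets the difference was 0.24 for Abcf2 (limma p of 0.254 unadjusted) and 0.13 for Abcf3 (limma p of 0.681 unadjusted).

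Abcf1, which binds the initiation factor eIF2 and has an E-box in its window, had 10.46 and 10.59 in N-myc high, against 10.53 and 10.22 in N-myc low. The arrays overlapped, the difference was 0.15 (SE 0.205), and it was -0.0056 without N-myc low mouse 2. Its other 5 probe sets gave -0.36 to 0.10. Abce1, which splits ribosomes after termination, had 9.74 and 9.75 in N-myc high, against 9.995 and 9.92 in N-myc low. The groups did not overlap, but the difference of -0.21 was close to its SE of 0.173 (limma adjusted p = 0.847), and all 3 probe sets of Abce1 had a negative sign.

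Abcg3, a rodent relative of Abcg2, was the member outside the role groups with a detected signal. It had 8.69 and 7.85 in N-myc high, against 7.04 and 7.42 in N-myc low. The groups did not overlap, with N-myc high mouse 1 the brightest array. The difference was 1.04 (SE 0.353), or 2.06-fold, with an unadjusted limma p of 0.0361 and an adjusted p of 0.779. With the mouse as a block the unadjusted p was 0.0677. The difference was 1.66 within mouse 1 and 0.43 within mouse 2. The second probe set of Abcg3 had the same sign in both mice, with 8.38 and 7.44 in N-myc high, against 6.45 and 6.38 in N-myc low, a difference of 1.49. Of the 4 members with more than 1 probe set and an unadjusted p under 0.05 (Abcg3, Abcf2, Abcf3 and Abcg4), only Abcg3 had other probe sets of the same sign. Abcb9, a lysosomal peptide transporter, gave -0.15 near the line, and Abcc8, the sulphonylurea receptor of beta cells, gave 0.065.

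**Figure D2:**
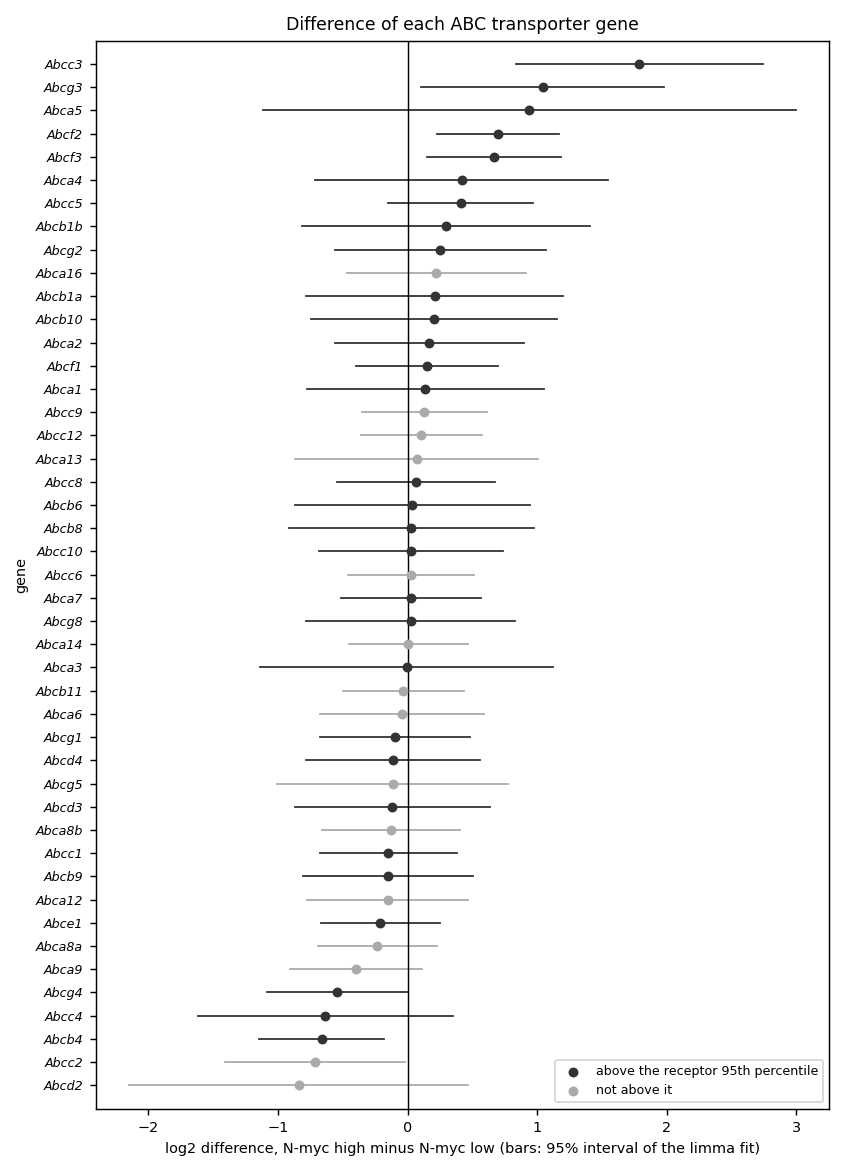
Log2 difference, N-myc high minus N-myc low (x axis), of the 45 ABC transporter genes (rows), with bars for the 95% interval of the limma fit, dark for genes above the receptor line and grey for the others. The intervals of 38 genes cover 0; those that do not are Abcc3, Abcg3, Abcf2 and Abcf3 on the right and Abcb4, Abcc2 and Abcg4, whose interval ends at -0.0055, on the left.

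Over the whole family, 0 of the 45 genes had a limma adjusted p under 0.05 (lowest 0.762), where 0% of all genes did. At an unadjusted p under 0.05, 4 members were higher in N-myc high (Abcc3, Abcf2, Abcf3 and Abcg3), where 3.53% of all genes were, and 3 were lower (Abcb4, Abcc2 and Abcg4), where 2.78% were. These counts are 8.89% and 6.67% of the members and rest on few genes. With 1 array left out, the genes at that threshold were not always the same ones, so such counts do not follow a fixed set of genes. With the mouse as a block the counts were 3 higher and 2 lower, with Abcg3, Abcg4 and Abcc2 no longer called and Abcc4 called lower. Abcc3 kept an unadjusted p under 0.05 in each of the 4 fits that leave out an array. The groups did not overlap for 13 members, 6 of them with both N-myc high arrays above (13.3% of members, 15.6% of all genes) and 7 with both below (15.6% of members, 20.8% of all genes). The median difference of the members was 0.024, against -0.033 over all genes. On the log2 scale 35 of the 45 lay within 0.5 of 0, a count that was not taken over all genes.

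The mice were set side by side because the labels give both fractions of each. The sign was the same in both mice for 23 of the 45 members (51.1%), where 53% of all genes had the same sign. Of these, 9 were higher in both mice (23.2% of all genes were) and 14 lower in both (29.7% of all genes were). The median difference of the members was -0.032 in mouse 1 and -0.072 in mouse 2. Over the 4 arrays the range of a member had a median of 0.64, against 0.56 over all genes. The range was above 1 for 8 members, a count that was not taken over all genes.

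**Figure D3:**
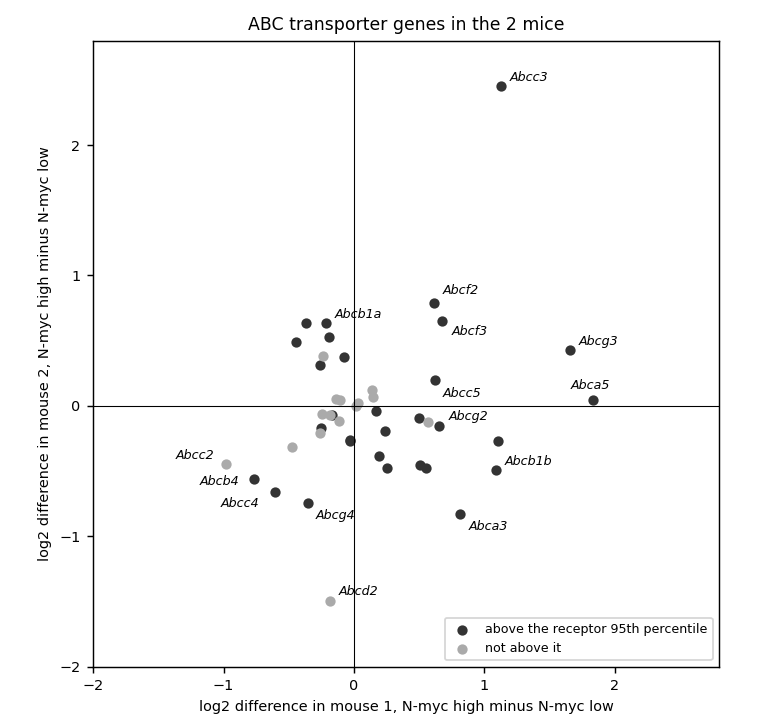
Log2 difference between N-myc high and N-myc low in mouse 1 (x axis) and in mouse 2 (y axis) for the 45 ABC transporter genes, dark for genes above the receptor line. Points in the upper right and lower left have the same sign in both mice, among them Abcc3, Abcg3, Abcf2, Abcf3, Abcb4 and Abcc4, while Abcg2, Abcb1a, Abcb1b and Abca3 have opposite signs.

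Probe sets of a gene did not all share a sign. Of the 45 members 26 had more than 1 probe set, and in 16 of these at least 1 other probe set had the opposite sign. Of the 47 other probe sets 27 had a sign opposite to that of the probe set used. The same shares were not taken over all genes, so these counts do not set the family apart. Some of the other probe sets, such as those of Abcc8 and Abcc9, lay below the receptor line, where a sign says little. The members whose other probe sets all had the same sign numbered 10, among them Abcg3, Abca1, Abca5 and Abcb1a with positive and Abce1, Abcg1, Abcd3 and Abca9 with negative differences. The other 19 members, among them Abcg2, Abcc3, Abcb4 and Abcc4, rest on 1 probe set. The probe sets used for Abcf1, Abce1, Abcg4 and Abcc2 end in s_at, the maker's type that may read transcripts of more than 1 gene. Those used for Abcc10, Abcd4, Abcc8 and Abca14 end in a_at, a type that may read more than 1 transcript of a gene.

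**Figure D4:**
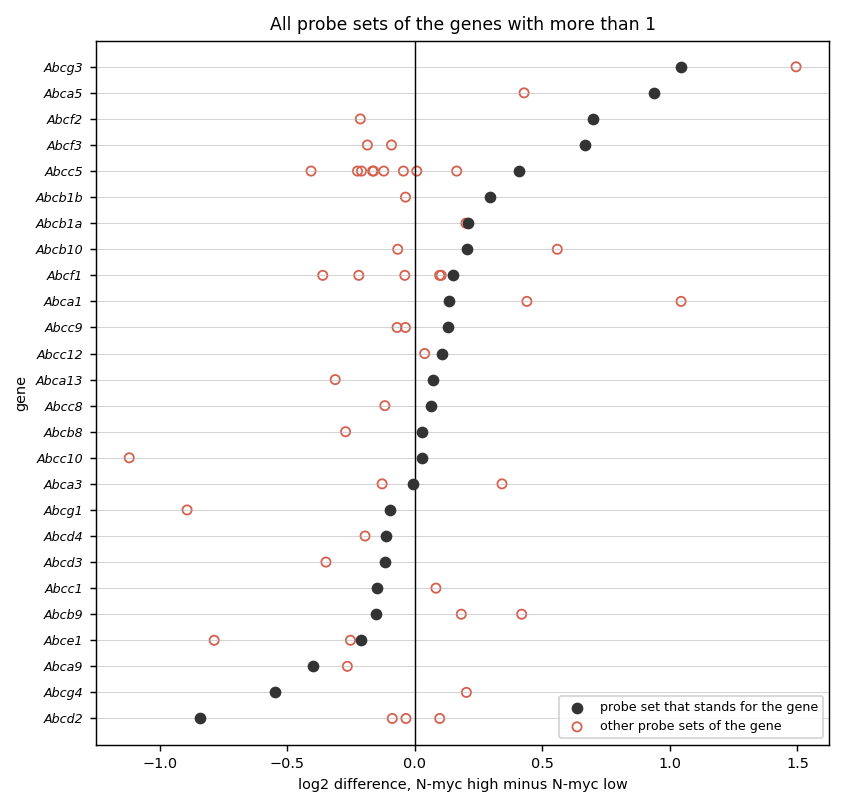
Log2 difference, N-myc high minus N-myc low (x axis), of every probe set of the 26 ABC transporter genes with more than 1 (rows), filled for the probe set used and open for the others. The open points of Abcf2 and Abcf3 lie left of 0 while the filled ones lie near 0.7, and both points of Abcg3 lie right of 1.

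Members that lie next to each other in the annotation did not all share a sign. Abcb1a, Abcb1b and Abcb4 follow each other on chromosome 5 with no other protein-coding gene between them, and their differences were 0.21, 0.30 and -0.66. Abca8b, Abca8a, Abca9, Abca6 and Abca5 follow each other on chromosome 11. Of these only Abca5 was above the line, and the others, at means of 2.56 to 3.04, gave -0.40 to -0.045. Abcg5 and Abcg8, which encode the 2 parts of a sterol exporter, are neighbours on chromosome 17, and Abcg8 was just above the line and Abcg5 below it.

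Genes that work with the transporters were looked up from lists by role, and 0 of them had a limma adjusted p under 0.05. The counts below at an unadjusted p under 0.05 stand beside 3.53% of all genes higher and 2.78% lower. Of the ABC genes with other names, Tap1, which with Tap2 carries peptides to MHC class I, gave 0.35 (SE 0.328) and Tap2 gave -0.36 (SE 0.22), and Cftr was below the line. In the cholesterol efflux list 16 of 20 genes were measured, with a median of 0.068 (-0.13 within mouse 1 and 0.036 within mouse 2) and 0 higher and 0 lower at an unadjusted p under 0.05. Its members of smallest p were Rxra, a partner of the sterol sensors, with 0.42, and the lysosomal cholesterol exporter Npc1 with -0.61. In the list of xenobiotic sensors and glutathione genes 18 of 19 were measured, with a median of 0.095 and again 0 and 0. The glutathione transferase Gsta4 gave 1.05 (SE 0.396), and Nfe2l2, the oxidative stress factor, gave -0.060.

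The haem and iron-sulphur list, with 17 of 19 measured, had a median of 0.066 (-0.069 within mouse 1 and -0.041 within mouse 2) and 1 gene higher at an unadjusted p under 0.05, Nfs1, the cysteine desulphurase (0.96, SE 0.19). The first enzyme of haem synthesis in red cells, Alas2, gave -1.13 (SE 0.575), and it is also among the erythroid markers, whose sums were given above. The peroxisome list, with 19 of 23 measured, had a median of 0.091, with Pex6, an import ATPase, higher (1.30, SE 0.389) and the oxidase Acox3 lower (-0.69, SE 0.192) at an unadjusted p under 0.05. The ribosome recycling list, with 11 of 14 measured, had a median of -0.021 and 1 such gene, Pelo, which opens stalled ribosomes for Abce1. Pelo had 6.49 and 6.72 in N-myc high, against 5.46 and 5.71 in N-myc low, a difference of 1.02 (SE 0.206, limma p of 0.0056 unadjusted and 0.762 adjusted), while its partner Hbs1l gave -0.085.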

How the data were processed

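The values are log2 probe set intensities that the authors made with RMA, per the submitters' processing notes, which list affy and limma and give no versions. RMA subtracts background, equalises array distributions and summarises probes, so a shift shared by all genes is removed. The chip definition used is not given in the sources used here. Precision is limited by having 4 arrays. Of 45101 probe sets, 34945 named 1 gene in the platform annotation and gave 18193 genes, 932 named several genes, 9160 were unnamed here and 64 were controls. Dim genes were kept. limma 3.58.1 (lmFit, eBayes) in R 4.3.3 was fitted to all 4 arrays, with Benjamini-Hochberg adjustment over all 18193 genes, and SE and 95% intervals are those of this fit. The fit was also run on simulated data drawn from its own model, without pairing by mouse. Such data cannot show how well the fit suits these 4 arrays. With 2 against 2 arrays the smallest two-sided p of an exact permutation test is 0.333, so none was run on single genes.

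Each array's title gives its mouse, and same-numbered arrays were read as pairs on that basis. Their deviations from the group means correlated at r = 0.0492 across genes. Xist, whose values are given above, was bright on both mouse 1 arrays and dim on both mouse 2 arrays. p-values measure the spread between these samples. The members and lists were chosen with earlier results of these data known. Named were Abcg2, Abcb1a and Abcb1b, the 10 members of highest mean, up to 8 of smallest p in each direction with 1 sign in both mice, and members met while going through the role groups. Alternatives were the mouse as a block, the mean and the most variable probe set, a filter on dim genes, median centring, a second quantile normalisation, a trended prior and each array left out.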

Additional observations from a re-analysis of the deposited data

How the results depend on the processing

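In each of the 11 alternative fits, 0 members had a limma adjusted p under 0.05, and the lowest adjusted p of a named member was 0.542. With the mouse as a replicate block, 3 members were higher and 2 lower at an unadjusted p under 0.05, with Abcc4 entering and Abcg3, Abcg4 and Abcc2 leaving, and the block changed no call at the adjusted threshold. The mean of the probe sets gave 2 higher members, without Abcf2 (0.24) and Abcf3 (0.13), and a median difference of -0.026, and the sign turned for Abcf1 (-0.045), Abca3 (0.069) and Abcc5 (-0.075). The probe set with the largest spread turned Abcf1 (-0.36), Abcc1 (0.083) and Abcf3 (-0.19). The number of lower members was 1 without dimmer genes, where fewer genes were tested, and 1 after a second quantile normalisation. Centring the arrays moved the median of the members to -0.027, and the mice alone, an alternative chosen after seeing the data, gave -0.032 and -0.072 (mouse 1 and mouse 2). With 1 array left out, 1 to 3 members were higher and 0 to 2 lower, and the median ran from -0.063 to 0.070. The lone array of a fraction is then assumed to vary like the other fraction. The sign turned with an array left out for Abcg2 (-0.13 to 0.63), Abcb1a (-0.28 to 0.70), Abcb1b (-0.19 to 0.78), Abca3 (-0.46 to 0.45), Abca5 (-0.17 to 2.05), Abcd3 (-0.38 to 0.15), Abcf1 (-0.0056 to 0.30) and Abcg1 (-0.25 to 0.056). The cause of these changes was not tested. Of 24 named members, 13 kept 1 sign under all alternatives run. The 30 members above the receptor line were 28 with the 99th percentile, 23 with the median gene and 27 with the mean of probe sets. Dim signals limit the 15 members below the line.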
